A study of Mus musculus with 2 samples.

Results

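The 41 genes described here encode the machinery of DNA replication and of S phase, the part of the cell cycle in which the genome is copied. They were taken by symbol from a list of gene names, with no threshold on a measured value. The list was chosen with earlier results of these data known, and all 41 were found among the 23284 genes of the count files. Each gene also had a mean of at least 1 CPM (the count of a gene scaled to a common library total) over both libraries, as did 12607 genes in all. RNA came from primary hepatocytes, liver cells kept in culture, of C57BL/6 mice, as 1 library of cells infected with lentivirus carrying an shRNA against JMJD3 and 1 library of cells infected with control lentivirus. JMJD3, encoded by Kdm6b, is a demethylase that removes methyl groups from lysine 27 of histone H3. Each library was a pool from 5 mice, infected 24 h after plating, and both cultures carried virus for 48 h before 6 h in 5 mM glucose with 10 μM forskolin, an activator of adenylyl cyclase used to imitate fasting. No culture without virus or without forskolin was analysed here, and with 1 library per group no difference below has a replicate check. The series title concerns JMJD3 in fasting and fatty acid oxidation, so the replication genes lie outside its stated subject.

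Replication begins when the origin recognition complex, with the loading factors Cdc6 and Cdt1, places the MCM2-7 ring helicase on DNA in G1. Cdc45 and the GINS complex then turn that ring into a moving helicase, polymerases copy both strands behind it, and ligase seals the fragments of the lagging strand. Many of these genes are transcribed in late G1 under E2F factors, which the retinoblastoma family of pocket proteins holds back in resting cells. Hepatocytes of the adult liver are mostly quiescent, re-enter the cycle after loss of liver tissue, and divide little in ordinary culture.

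The JMJD3 shRNA library held 18334366 counts and the control library 11099562, a 1.65-fold difference in depth, so every member was measured more precisely in the knockdown library. Kdm6b had 33.0 CPM in the JMJD3 shRNA library against 90.7 CPM in the control library, a ratio of 0.364 with a 95% interval of 0.329 to 0.403. Beside the labelled cell type, levels of 12 hepatocyte markers were read. All 12 were measured, and 9 were called lower in knockdown cells by the rule given below. The most abundant, Trf, encoding transferrin, stood at 4254 CPM in knockdown cells and 4282 CPM in control cells, and Alb, encoding albumin, at 794 CPM in knockdown cells and 1519 CPM in control cells. The apolipoprotein gene Apoa1 was low in both libraries, at 2.93 CPM in knockdown cells and 3.29 CPM in control cells. Spp1, a marker of bile duct cells, stood above all of these hepatocyte markers, at 8011 CPM in knockdown cells and 7795 CPM in control cells. Ratios are knockdown over control after TMM scaling, a correction for library composition. The exact 95% interval of a ratio was computed from the 2 counts of the gene. It reflects counting alone. It is narrower than it should be, since each read of a pair was counted, and more so wherever PCR copies of a fragment were counted. Genes that differed by 1.5-fold or more, with 1 outside the interval, were called higher or lower.

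Of the 41 replication genes, 13 were called higher in the JMJD3 shRNA library and 1 was called lower. Across all 12607 measured genes 15.3% were called higher and 12.8% lower, while 31.7% of the replication genes were called higher and 2.44% lower. The genes called higher were Orc1, Cdc6, Cdt1, Mcm3, Mcm4, Mcm5, Gins1, Gins2, Pola1, Pole, Rrm2, Tk1 and Uhrf1, and the gene called lower was Lig1. Of the 27 replication genes not called, 8 had an interval wholly above 1, 2 had one wholly below 1, and 17 had one that included 1. Among the 9071 measured genes not called, 2314 had an interval wholly above 1 and 2476 had one wholly below 1. Ratios were above 1 for 28 of the 41 genes and below 1 for 13, with a median log2 ratio of 0.22. Over all measured genes, ratios were above 1 for 6268 and below 1 for 6339, with a median of -0.004. Summed over the 41 genes the level was 1205 CPM in knockdown cells and 1037 CPM in control cells, a ratio of 1.16. The values did not move as 1 block, since the lowest log2 ratio was -0.68 and the highest 1.67. In bulk RNA such as this, fewer cells of a type and less RNA per cell cannot be told apart.

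**Figure D1:**
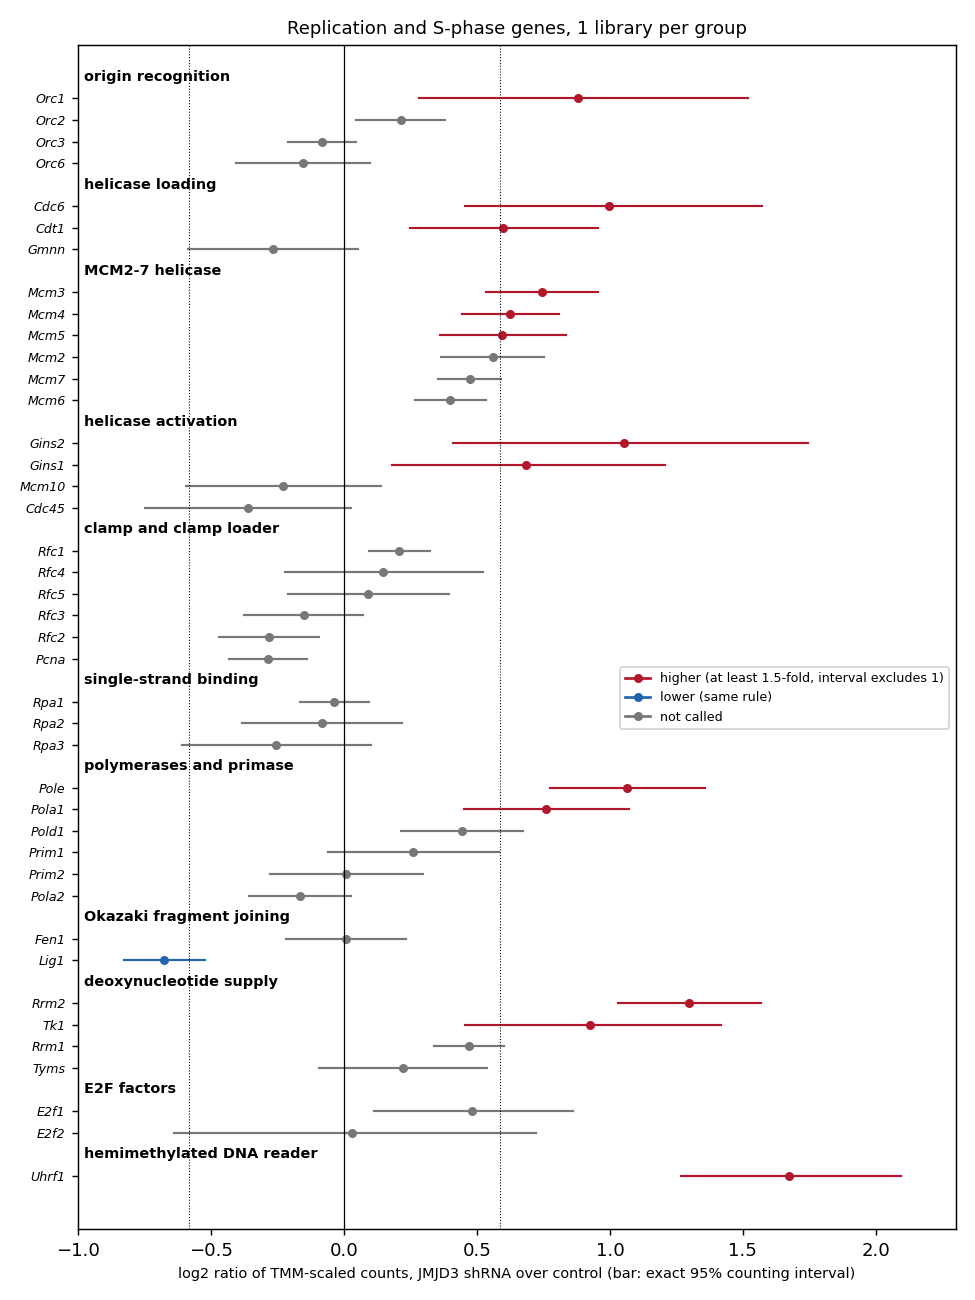
Log2 ratio of knockdown over control for each of the 41 genes, grouped by role, with exact 95% counting intervals as bars; dotted lines mark 1.5-fold. All 6 MCM2-7 subunits lie above 0, the clamp and clamp loader lie around 0, Uhrf1 is highest at 1.67 and Lig1 lowest at -0.68.

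The promoters of these genes are shown because E2F factors are known to bind sites in them, and because several members were called higher together. RefSeq promoter windows on GRCm38.p6, from 250 bases before to 50 after the transcription start, were held for 34 of the 41 genes. None was held for Gins1, Gins2, Gmnn, Mcm4, Pole, Prim2 and Rfc2. The E2F consensus was searched on both strands as TTTCCCGC, TTTGGCGC, TTTGCCGC and TTTCGCGC. A match was present for 14 of the 34 genes, 41.2%, against 2.61% of all 27025 genes with a window and 4.67% of the 9074 of them measured here. The 14 genes were Cdc6, Cdt1, E2f2, Lig1, Mcm3, Mcm5, Mcm6, Mcm7, Orc1, Orc3, Pola1, Pold1, Rfc3 and Uhrf1. An E2F match was held by 7 of the 9 genes called higher with a window and by 7 of the other 25, a split made after the ratios were known and not tested. Of the 20 matches in the 34 genes, 12 began upstream of the start, the farthest at base -185, and 1 overlapped a motif of another kind. Mcm5 at -153 and -149, and Mcm6 at -110 and -106, each hold matches on opposite strands that share bases. Those were counted as separate matches. The CCAAT box (CCAAT) was found for 22 of 34 genes against 41.1% of all genes with a window and 43.2% of those measured, in 6 of the 9 called higher and 16 of the other 25. The GC box (GGGCGG) was found for 25 of 34 against 38.2% of all and 69.1% of those measured, in 7 of the 9 called higher and 18 of the other 25. The CHR element (TTTGAA), known from G2/M promoters, was found for 4 of 34, which is 11.8%, against 20.2% of all and 14.1% of those measured, in 0 of the 9 called higher and 4 of the other 25. A match describes letters in a window and is no evidence that a factor was bound in these cells.

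The 5 windows below run 5′ to 3′ on the strand of the gene, with E2F matches in capitals. They show members called higher (Mcm3, Orc1, Uhrf1), a member not called (Mcm6) and the member called lower (Lig1), so that matches can be seen on each side. Mcm3 lies at chr1:20820263-20820562 on the minus strand and has 2 matches, both after the start. Mcm6, at chr1:128359656-128359955 on the minus strand, has 3, of which 2 run into each other on opposite strands. Orc1 is at chr4:108579204-108579503, Uhrf1 at chr17:56304063-56304362 and Lig1 at chr7:13278576-13278875, all on the plus strand with 1 match each.
Mcm3: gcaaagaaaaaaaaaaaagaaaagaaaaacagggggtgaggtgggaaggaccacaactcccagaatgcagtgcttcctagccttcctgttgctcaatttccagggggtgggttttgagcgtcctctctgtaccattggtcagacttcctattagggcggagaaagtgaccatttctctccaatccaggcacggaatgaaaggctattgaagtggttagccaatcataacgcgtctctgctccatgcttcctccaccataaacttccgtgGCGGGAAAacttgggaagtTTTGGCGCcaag
Mcm6: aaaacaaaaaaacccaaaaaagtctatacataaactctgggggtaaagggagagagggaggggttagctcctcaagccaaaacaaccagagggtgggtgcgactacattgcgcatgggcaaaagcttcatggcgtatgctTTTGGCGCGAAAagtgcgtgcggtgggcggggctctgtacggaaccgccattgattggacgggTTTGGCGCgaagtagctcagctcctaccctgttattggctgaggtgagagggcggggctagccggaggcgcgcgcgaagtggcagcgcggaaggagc
Orc1: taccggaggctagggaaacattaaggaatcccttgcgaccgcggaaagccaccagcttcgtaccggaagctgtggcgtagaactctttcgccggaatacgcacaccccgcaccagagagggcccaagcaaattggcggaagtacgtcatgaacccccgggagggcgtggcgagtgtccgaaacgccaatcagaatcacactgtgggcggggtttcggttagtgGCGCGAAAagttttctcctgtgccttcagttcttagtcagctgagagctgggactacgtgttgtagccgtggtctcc
Uhrf1: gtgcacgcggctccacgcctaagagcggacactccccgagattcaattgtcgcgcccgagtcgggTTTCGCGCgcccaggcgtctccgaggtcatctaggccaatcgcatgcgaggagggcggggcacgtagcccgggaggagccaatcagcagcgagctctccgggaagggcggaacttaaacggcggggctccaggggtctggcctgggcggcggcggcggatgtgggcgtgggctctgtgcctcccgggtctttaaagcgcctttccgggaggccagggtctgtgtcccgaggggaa
Lig1: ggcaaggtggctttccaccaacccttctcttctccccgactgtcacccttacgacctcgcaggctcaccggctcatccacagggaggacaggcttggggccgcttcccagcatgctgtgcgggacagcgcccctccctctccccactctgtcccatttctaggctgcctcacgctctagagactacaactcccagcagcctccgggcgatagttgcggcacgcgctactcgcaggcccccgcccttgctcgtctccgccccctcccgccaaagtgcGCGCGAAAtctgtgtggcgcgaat

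Among the 4 origin recognition subunits only Orc1, the subunit whose level cycles in mammalian cells, was called higher. It had 5.08 CPM in knockdown cells, from 92 counts, and 2.76 CPM in control cells, from 31 counts, a log2 ratio of 0.88 (0.28 to 1.52). Orc2 stood at 0.21 (0.05 to 0.38), a ratio under 1.5-fold. Its interval only just excluded 1 and is too narrow, since each read of a pair was counted. Orc3 at -0.08 and Orc6 at -0.16 had intervals that included 1. Per length Orc1 was also the scarcest subunit, at 1.69 CPM per kb of exon in knockdown cells and 0.916 CPM per kb in control cells. Orc2, Orc3 and Orc6 lay between 10.7 and 13.8 CPM per kb in knockdown cells and between 11.6 and 11.9 CPM per kb in control cells. Exons of Orc3 share 128 bp with Akirin2, and reads there go to neither gene under the default of the counting program.

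Both helicase loading factors were called higher, while the inhibitor of Cdt1 was not called. Cdc6, which joins the origin complex to recruit the helicase, had 6.57 CPM in knockdown cells and 3.29 CPM in control cells. Its log2 ratio was 0.997 (0.45 to 1.57), on 119 and 37 counts. Cdt1, which escorts the MCM ring to origins, had 12.9 CPM in knockdown cells and 8.54 CPM in control cells, a log2 ratio of 0.60 (0.25 to 0.96) on 234 and 96 counts. Cdt1 is close to the threshold, at 1.51-fold, and like Mcm5 it was not called when library totals replaced TMM scaling. Gmnn, encoding geminin, which blocks Cdt1 outside G1, had 10.7 CPM in knockdown cells and 12.9 CPM in control cells. Its log2 ratio of -0.27 had an interval of -0.59 to 0.05, so no difference was detectable at this depth.

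All 6 subunits of the MCM2-7 helicase had ratios above 1 with intervals that excluded 1, and 3 of them passed 1.5-fold. Mcm3 had 37.8 CPM in knockdown cells and 22.6 CPM in control cells, a log2 ratio of 0.74 (0.53 to 0.96) on 685 and 254 counts. Mcm4 had 47.7 CPM in knockdown cells and 31.0 CPM in control cells, a log2 ratio of 0.62 (0.44 to 0.81) on 864 and 348 counts. Mcm5 had 27.8 CPM in knockdown cells and 18.4 CPM in control cells, a log2 ratio of 0.60 (0.36 to 0.84) on 504 and 207 counts. Mcm5 at 1.51-fold lies just past the threshold and Mcm2 at 1.47-fold, a log2 ratio of 0.56 (0.37 to 0.75), just short of it. Mcm7 at 0.47 (0.35 to 0.59) and Mcm6 at 0.40 (0.27 to 0.53) had the highest levels of the 6 and the smallest ratios. Mcm7 had 102 CPM in knockdown cells and 73.6 CPM in control cells, on 1848 and 827 counts. Summed over the ring, the level was 336 CPM in knockdown cells and 234 CPM in control cells, a ratio of 1.44.

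The subunits enter the ring in equal number, but their transcripts differed several-fold per length. In knockdown cells Mcm7 had 42.6 CPM per kb, Mcm6 27.5, Mcm4 13.3, Mcm3 13.1, Mcm2 12.2 and Mcm5 8.13. In control cells Mcm7 had 30.7 CPM per kb, Mcm6 20.9, Mcm4 8.63, Mcm2 8.29, Mcm3 7.83 and Mcm5 5.38. The order was the same in both libraries except for Mcm2 and Mcm3, which together with Mcm4 had overlapping counting intervals in each library. Log2 ratios within the ring spanned 0.34.

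**Figure D2:**
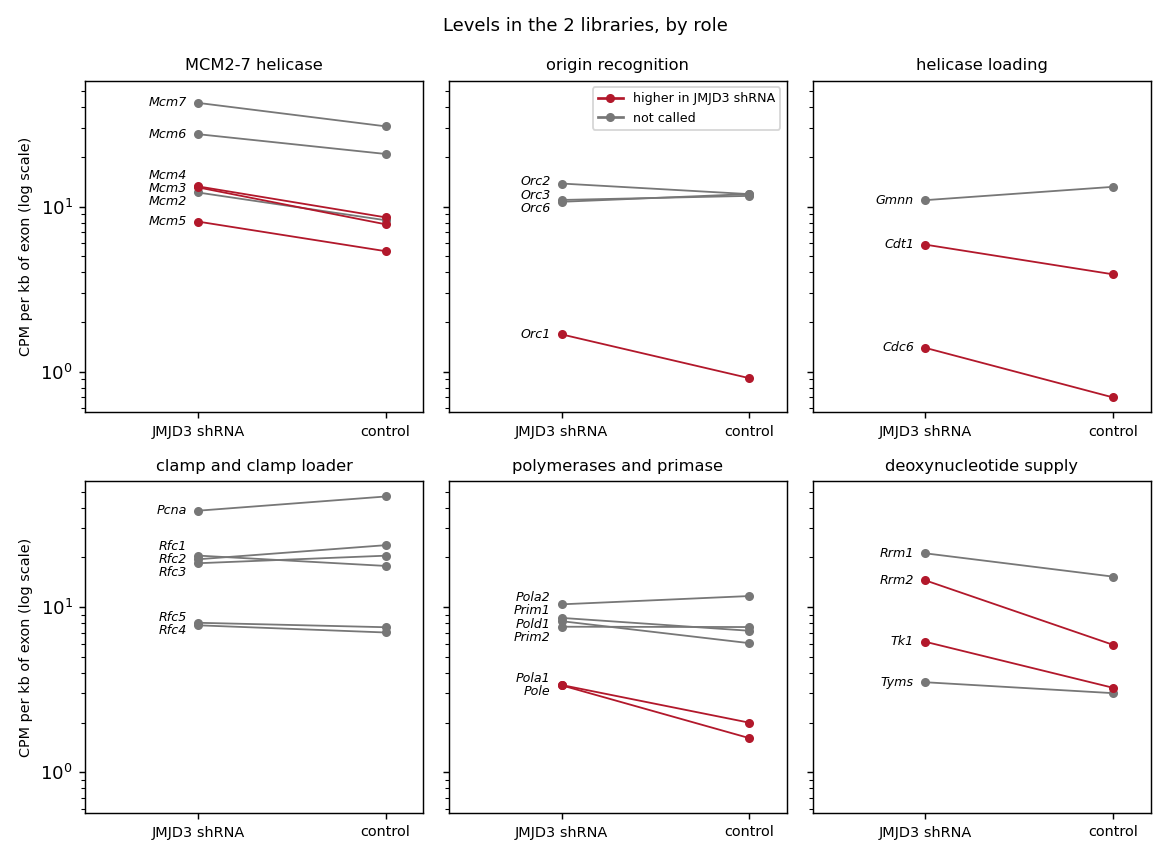
Level of each gene in the JMJD3 shRNA library (left) and the control library (right) as CPM per kb of exon on a log scale, in 6 of the roles; red marks genes called higher. All 6 MCM2-7 lines are lower on the control side, while Orc1 at 1.69 and 0.916 CPM per kb lies well under the other origin recognition subunits in both libraries.

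The factors that activate the helicase were divided. Gins1 and Gins2, subunits of the GINS complex, were called higher. The GINS subunits outside the 41 genes went the other way and were not called. Gins3 was at -0.30 (-0.76 to 0.16) and Gins4 at -0.37 (-0.57 to -0.17). Gins2 had 4.81 CPM in knockdown cells and 2.31 CPM in control cells, a log2 ratio of 1.05 (0.41 to 1.75), on 87 and 26 counts. Gins1 had 6.57 CPM in knockdown cells and 4.09 CPM in control cells, a log2 ratio of 0.68 (0.18 to 1.21) on 119 and 46 counts, and was not called with counts halved. Their partner Cdc45 had 7.12 CPM in knockdown cells and 9.16 CPM in control cells, a log2 ratio of -0.36 (-0.75 to 0.02). Mcm10, a separate factor needed for initiation, was at -0.23 with an interval of -0.59 to 0.14. Neither Cdc45 nor Mcm10 was called. Exons of Gins2 share 118 bp with Gse1, and its control count was the lowest of the 41 genes.

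Neither the sliding clamp, its loader nor the single-strand binding protein had a member that was called. Pcna, the clamp that tethers polymerases to DNA and is often used as a proliferation marker, had 48.4 CPM in knockdown cells and 59.0 CPM in control cells. Its log2 ratio was -0.29 (-0.43 to -0.14) on 876 and 663 counts, a ratio below 1 beyond counting error and under 1.5-fold. Of the clamp loader, Rfc2 was at -0.28 (-0.47 to -0.09) and not called. Rfc1, the largest subunit, had 96.9 CPM in knockdown cells and 83.9 CPM in control cells, a log2 ratio of 0.21 (0.09 to 0.32) on 1755 and 943 counts. Rfc3 at -0.15, Rfc4 at 0.15 and Rfc5 at 0.09 had intervals that included 1. The RPA subunits Rpa1, Rpa2 and Rpa3, which coat single-stranded DNA, were at -0.04, -0.08 and -0.25, all with intervals that included 1. Clamp and loader together summed to 221 CPM in knockdown cells and 225 CPM in control cells, and RPA to 91.2 CPM in knockdown cells and 95.5 CPM in control cells. Pcna and Tyms have pseudogenes in RefSeq, and Rfc4 shares 160 bp of exon with Eif4a2, so these counts are less certain.

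Of the 6 polymerase and primase genes 2 were called higher, Pole and Pola1, and 0 lower. Pole, the catalytic subunit of the leading-strand polymerase epsilon, had 23.97 CPM in knockdown cells and 11.5 CPM in control cells, a log2 ratio of 1.06 (0.78 to 1.36) on 434 and 129 counts. Pola1, the catalytic subunit of polymerase alpha, which starts each new strand, had 18.1 CPM in knockdown cells and 10.7 CPM in control cells, a log2 ratio of 0.76 (0.45 to 1.07) on 327 and 120 counts. Pold1, the catalytic subunit of the lagging-strand polymerase delta, had 28.2 CPM in knockdown cells and 20.7 CPM in control cells. Its log2 ratio of 0.44 (0.22 to 0.67) did not reach 1.5-fold. The partners of Pola1 in its complex did not follow it beyond counting error, with the accessory subunit Pola2 at -0.17 and the primase subunits Prim1 at 0.26 and Prim2 at 0.01, and all 3 intervals included 1. Pola1 and Pole have 2 of the 3 longest exon models among members, at 5347 and 7129 bp.

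Lig1, the ligase that joins Okazaki fragments, was the only member called lower. It had 39.8 CPM in knockdown cells, from 720 counts, and 63.5 CPM in control cells, from 714 counts, a log2 ratio of -0.68 (-0.83 to -0.52). Fen1, the flap nuclease that trims the same fragments, had 23.9 CPM in knockdown cells and 23.8 CPM in control cells, a log2 ratio of 0.01 (-0.22 to 0.23). The gene Lig1 lies on the plus strand of chromosome 7 in mm9, from 13862662 to 13896776, and its exons share 116 bp with 6330408A02Rik.

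Genes of deoxynucleotide supply had ratios above 1 in 4 of 4 cases, and 2 were called. Rrm2, the regulated small subunit of ribonucleotide reductase, had 31.7 CPM in knockdown cells and 12.9 CPM in control cells, a log2 ratio of 1.30 (1.03 to 1.57) on 574 and 145 counts. Rrm1, its large subunit, had 84.7 CPM in knockdown cells and 61.2 CPM in control cells, a log2 ratio of 0.47 (0.34 to 0.60). The intervals of the 2 subunits did not overlap. Per length, Rrm1 stood at 21.2 CPM per kb and Rrm2 at 14.5 CPM per kb in knockdown cells, against 15.3 and 5.92 CPM per kb in control cells. Tk1, the thymidine kinase of S phase, had 8.45 CPM in knockdown cells and 4.45 CPM in control cells, a log2 ratio of 0.93 (0.46 to 1.42) on 153 and 50 counts. Tyms, thymidylate synthase, was at 0.22 with an interval of -0.09 to 0.54. Exons of Tk1 share 88 bp with Afmid.

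Uhrf1 had the highest ratio of the 41 genes. It encodes a protein that binds hemimethylated DNA behind the fork and recruits the maintenance methyltransferase. It had 17.0 CPM in knockdown cells, from 308 counts, and 5.34 CPM in control cells, from 60 counts, a 3.19-fold difference and a log2 ratio of 1.67 (1.27 to 2.10). In mm9 the gene lies on the plus strand of chromosome 17, from 56442760 to 56462909, with 18 exons in the files. E2f1, an activating E2F factor, had 10.9 CPM in knockdown cells and 7.83 CPM in control cells, a log2 ratio of 0.48 (0.11 to 0.86), and was not called. E2f2 was the scarcest member per length, at 0.594 CPM per kb in knockdown cells and 0.582 CPM per kb in control cells, and its interval of -0.64 to 0.72 gives it no direction at this depth.

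In the authors' deposited table of the same comparison all 41 genes were listed, with log2 fold changes within 0.0028 of those above. That table has an adjusted p under 0.05 with a positive fold for 10 members and with a negative fold for 1, against 14.6% and 11.8% of its 12838 genes. The 11 genes were all among the 14 called here, and the other 3 were Orc1, Cdt1 and Gins1, with adjusted p-values of 0.0593, 0.0847 and 0.115 in the authors' deposited table. The authors' deposited table gives Uhrf1 an adjusted p of 7.56e-08, Rrm2 1.82e-06, Pole 0.000218 and Lig1 0.0111. No source used here states what spread those p-values assume for 1 library per group, so they describe these libraries.

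Genes of the same processes outside the 41 were taken from separate lists. Of 33 other replication genes 32 were measured, and 4 of these were called higher and 0 lower, around a median log2 ratio of 0.20. That count of 4 in 32 is no higher a share than the 15.3% of all measured genes. The highest was Pclaf, which encodes a PCNA-binding factor, at 8.78 CPM in knockdown cells and 2.49 CPM in control cells, a log2 ratio of 1.82 (1.23 to 2.45). The others called were Ticrr at 1.45, Atad5 at 0.95 and Top2a at 0.85. The other 28 genes were not called, among them the most abundant, Top1 at -0.20 and Chtf8 at 0.19, and the lowest, the RNase H2 subunit Rnaseh2a at -0.49. Of 10 further genes of nucleotide supply 2 were called higher, Shmt1 and Samhd1, and 0 lower, around a median of 0.01. That count is near the share of 15.3% of all measured genes. It was 1 with library totals and 1 with the length trend removed. Shmt1, the cytosolic serine hydroxymethyltransferase, was highest at 1.83 and the dUTPase gene Dut lowest at -0.33, while the most abundant, Cmpk1 and Nme1, were at 0.11 and -0.28.

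Regulators of entry into S phase were called in both directions. For comparison, 15.3% of all measured genes were called higher and 12.8% lower. Of 11 E2F and pocket protein genes 4 were called higher and 0 lower, around a median log2 ratio of 0.33. They were E2f7, E2f8 at 0.88, Rbl1 at 0.69 and E2f3 at 0.60. With the trend over exon length given below removed, Rbl1 at 0.50 and E2f3 at 0.42 were no longer called. The repressor E2f7 had 73 counts in knockdown cells and 6 in control cells, a log2 ratio of 2.92 (1.73 to 4.41). Tfdp1, a dimer partner of E2F factors, was at 0.34 and the pocket protein Rbl2, lowest of the list, at -0.33. Of 15 measured G1 genes 6 were called higher and 2, Cdkn2c and Cdkn1c, lower, around a median log2 ratio of 0.40. Cdk6, a kinase partner of cyclin D, had 33.1 CPM in knockdown cells and 3.20 CPM in control cells, a log2 ratio of 3.37 (2.89 to 3.90). The other genes called higher were Ccnd2 at 2.24, Cdkn2b at 1.99, Ccnd1 at 1.58, Myc at 1.497 and Ccne1 at 0.81. Inhibitors of the cyclin D kinases were found on both sides, with Cdkn2b called higher and Cdkn2c lowest of the list at -1.42, and the most abundant genes of the list, the inhibitor Cdkn1a and the kinase Cdk4, were at 0.51 and 0.00. Of 12 checkpoint genes 5 were called higher and 0 lower, among them the kinases Wee1 at 1.27 and Atr at 0.87. Atr, with 8074 bp of exon, was at 0.52 with that trend removed and was no longer called. Among those not called, Rad17 was at -0.12 and Chek2, the lowest, at -0.17.

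Genes of G2/M and mitosis were called higher in 21 of 30 cases and lower in 1, with a median log2 ratio of 0.81. The shares over all measured genes were 15.3% higher and 12.8% lower. Mki67, a marker of cycling cells, had 63.3 CPM in knockdown cells and 15.6 CPM in control cells, a log2 ratio of 2.02 (1.79 to 2.26). Kif23, a motor of cytokinesis, was highest at 2.13, Prc1 was at 1.23 and Pttg1, encoding securin, was lowest at -0.62. The list summed to 569 CPM in knockdown cells and 303 CPM in control cells, a ratio of 1.88, while the sums of the 41 replication genes stood at a ratio of 1.16. The difference between these lists was not tested, since 1 library per group gives no spread between samples.

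**Figure D3:**
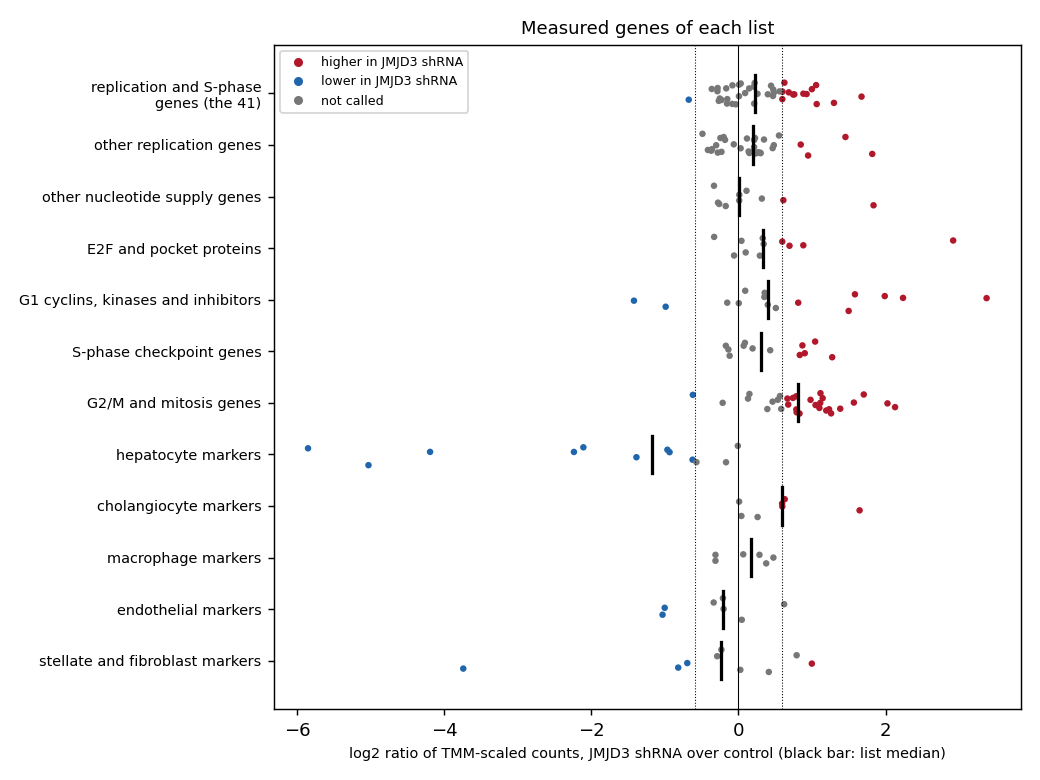
Log2 ratio of knockdown over control for the measured genes of each list, 1 point per gene with its vertical place random; black bars are list medians and dotted lines mark 1.5-fold. The median is 0.22 for the 41 replication genes, 0.81 for G2/M and mitosis genes and -1.18 for hepatocyte markers.

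Markers of hepatocytes and of cholangiocytes, the cells of bile ducts, moved alongside these genes. Beside the counts below, 15.3% of all measured genes were called higher and 12.8% lower. Of 12 hepatocyte markers 9 were called lower and 0 higher, with a summed level of 6718 CPM in knockdown cells and 13605 CPM in control cells. Trf was highest at -0.01, Fgb, encoding a fibrinogen chain, was at -2.24 and Cps1, a urea cycle enzyme, was lowest at -5.85. Of 7 measured cholangiocyte markers 4 were called higher, led by Krt7 at 1.65 (1.02 to 2.33) on 126 and 25 counts. The cholangiocyte list summed to 8501 CPM in knockdown cells and 8144 CPM in control cells, nearly all of it from Spp1 at 8011 CPM in knockdown cells and 7795 CPM in control cells. Sox9, next in counts, was called higher at 0.59 and Krt19 at 0.60, both at 1.51-fold and so just past the threshold. With the trend over exon length removed, Sox9 was at 0.48 and Krt19 at 0.79. Epcam was lowest at 0.01. Macrophage markers were called in 0 of 6 cases and summed to 130 CPM in knockdown cells and 153 CPM in control cells, with Clec4f at 0 counts in both libraries. Most of both sums came from Cd14, at 103 CPM in knockdown cells and 128 CPM in control cells. The median log2 ratio of the macrophage list was 0.17. Cd14 was at -0.31, Csf1r at 0.06, Marco at 0.47 and Cd68 at -0.31. Of 9 stellate and fibroblast markers 1 was called higher and 3 lower, with sums of 236 CPM in knockdown cells and 251 CPM in control cells. Col1a1 was at 0.03 and Acta2 at 0.41, Thy1 was highest at 0.997 and Reln lowest at -3.74. Of 7 endothelial markers 0 were called higher and 2 lower, with sums of 49.9 CPM in knockdown cells and 57.9 CPM in control cells. Cdh5 was at -0.20 and Eng at 0.04, Kdr was highest at 0.62 and Stab2 lowest at -1.03. Of 6 lymphoid and blood markers only Itgam was measured, at 0.27, and Cd3e, Nkg7 and Hbb-b1 had 0 counts in both libraries. The part of any cell type in the values of the replication genes was not tested.

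Ratios across all measured genes increased with exon length, which bears on members that are long or short. Among genes of 59 to 1639 bp the median log2 ratio was -0.28 and 6.03% of genes were called higher, against 3 of the 10 members of that size, Gins1, Gins2 and Tk1. Among genes of 4797 bp and over the median was 0.28 and 26.8% were called higher, against 2 of 3 members, Pola1 and Pole. With the trend removed the median over the 41 genes was 0.37, ratios were above 1 for 31, and 10 of the 13 genes were still called higher. The exceptions were Mcm4 at 0.55, Mcm5 at 0.54 and Pola1 at 0.57, while Pole stood at 0.76 and Gins2 at 1.34. Lig1 stayed lower at -0.74, and Pcna moved to -0.06. Of the other lists, 2 of 11 E2F and pocket protein genes, 3 of 12 checkpoint genes and 1 of 10 further nucleotide supply genes were still called higher. With the trend removed 4 other replication genes, 7 G1 genes and 21 G2/M genes were called higher. Across the 41 genes the Spearman correlation of the log2 ratio with exon length was 0.28, against 0.33 across all measured genes. All these genes were measured in the same 2 libraries.

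**Figure D4:**
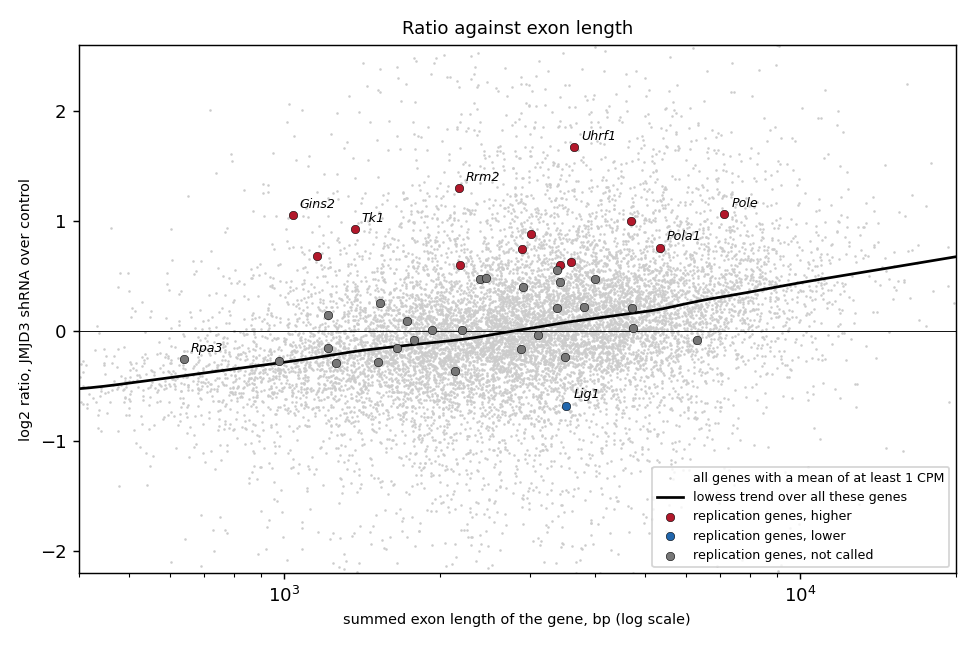
Log2 ratio of knockdown over control against summed exon length on a log axis, for all measured genes (grey), their lowess trend (black line) and the 41 replication genes (coloured by call); genes beyond the axis limits are not drawn. The trend rises with length, and Uhrf1, Rrm2, Gins2 and Tk1 lie far above it while Lig1 at -0.68 lies below it.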

How the data were processed

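Per the file headers, the authors ran featureCounts 1.4.6-p4 on STAR alignments with UCSC mm9 gene models and without strand, giving whole-number counts for each gene. No option for read pairs was recorded, so each read of a pair counts. Trimmomatic 0.36, STAR 2.5.3a and edgeR are named in the submitters' processing notes. The authors' deposited table gives a log2 fold change, an average log2 CPM, a p-value and an adjusted p-value for each of 12838 genes, with no test or filter stated. Its sign matched knockdown over control in 12824 of 12824 genes compared.

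Library totals of 18334366 (JMJD3 shRNA) and 11099562 (control) were multiplied by TMM factors (edgeR 4.0.16, R 4.3.3) to scale the counts. Genes with a mean of at least 1 CPM over both libraries were kept. The log2 ratio had no pseudocount, and its interval is an exact conditional binomial (Clopper-Pearson) 95% interval (scipy 1.17.1). With 1 library per group no test was run. A gene was called at 1.5-fold with an interval that excluded 1. The procedure was run on simulated counts that held counting noise alone. That run shows that the arithmetic works and cannot speak to spread between samples. CPM per kb divides CPM by the deposited summed exon length. The length trend is a lowess fit (fraction 0.3, statsmodels 0.14.6). Promoters come from RefSeq on GRCm38.p6, and coordinates of genes from the mm9 files. Ticrr, Pclaf, Adgre1 and Rad9a were found under older symbols. The members, lists and rules were chosen with earlier results of these data known. Every member called, Pcna and the 2 members with the most counts were given in full, and of other lists the 2 with the most counts, the highest and the lowest; others were named after their values were seen. Alternatives covered scaling, filters, thresholds, overlaps, halved counts and the authors' deposited table. Some genes of the other lists are not reported here by name.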

Additional observations from a re-analysis of the deposited data

How the results depend on the processing

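Under 10 alternatives the count of replication genes called higher was 13 with median-of-ratios size factors (DESeq2 1.42.0) and with no filter, 12 with counts halved, 11 with library totals and with overlapping genes left out, and 10 with a mean of 5 CPM, with the length trend removed and in the authors' deposited table. It was 19 with the threshold set 25% above 1 and 4 of 41 at 2-fold, where Gins2, Pole, Rrm2 and Uhrf1 remained. Over all measured genes 24.6% and 7.35% were called higher at those thresholds, so at 2-fold the members lie nearer to the share of all genes than at 1.5-fold. Pole, Rrm2 and Uhrf1 were called higher in all 11 settings run, the main one included. Lig1 was the 1 gene called lower, except that the count was 0 at 2-fold and 0 with overlapping genes left out, which removes Lig1 itself. The median log2 ratio ran between 0.18 and 0.37. Other replication genes called higher numbered 2 at 2-fold and 7 at the threshold of 25%, where 3 were called lower. No called member changed sign under these alternatives. No paired analysis was possible because each group holds 1 library. Depth limits the scarce members most: Gins2 and Orc1 rest on 26 and 31 control counts, and E2f2, also on 31, could not be given a direction.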
